A study of Homo sapiens with 8 samples.

Results

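Elafin (PI3), the secretory leukocyte protease inhibitor (SLPI), LEKTI (SPINK5) and 7 epithelial kallikreins (KLK5, KLK6, KLK7, KLK8, KLK10, KLK11 and KLK13) were examined in CAL-27 cells, an established line of human squamous carcinoma of the head and neck. These 10 genes were taken by name, with 13 probes, from 17783 named genes on the array. They were chosen by the array signal itself, because PI3 and KLK10 differed between Go and enzastaurin, so the difference of Go from enzastaurin is given below as a description without a test. Of the 10 genes, 9 passed the filter on dim probes, among 12785 genes tested, and KLK13 did not.

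Single-colour arrays of total RNA from 2 Go samples, 3 enzastaurin samples and 3 control samples were deposited. Enzastaurin, developed as an inhibitor of the beta form of protein kinase C, and Go are named in the title of the series as inhibitors of that kinase (written PCK there). All cells were held in serum-free conditions for 24 h, and the inhibitors were then applied for 24 h. Enzastaurin was used at 10 µM, and the labels give no dose for Go, so the 2 inhibitors are set side by side without a match of dose. What the control cells received is not described beyond the word control, and nothing says whether arrays of a group came from separate cultures. P-values therefore measure the spread between these arrays, which may be technical.

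Elafin and SLPI are small secreted proteins with whey acidic protein domains that block neutrophil elastase at epithelial surfaces. The kallikreins of this group are secreted trypsin-like or chymotrypsin-like serine proteases of stratified epithelia, which activate one another, cut the proteins that hold corneocytes together and cleave protease-activated receptors. LEKTI, the product of SPINK5, is the inhibitor that holds several of them in check. The kallikrein genes lie side by side in 1 cluster on chromosome 19, and PI3 and SLPI lie close together in another cluster of whey acidic protein genes.

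Between the arrays of the inhibitors, KLK10 had the largest contrast among these kallikreins, and KLK5 was the kallikrein called lower than control with both inhibitors. Their upstream sequences from RefSeq (build GRCh38.p14, minus strand) are shown for that reason, as the 250 bases before the annotated start in lower case and the start itself as the capital at the end. The KLK10 sequence spans chr19:51019709-51019959 and belongs to 1 of its 2 annotated starts, and the KLK5 sequence spans chr19:50953038-50953288.
KLK10: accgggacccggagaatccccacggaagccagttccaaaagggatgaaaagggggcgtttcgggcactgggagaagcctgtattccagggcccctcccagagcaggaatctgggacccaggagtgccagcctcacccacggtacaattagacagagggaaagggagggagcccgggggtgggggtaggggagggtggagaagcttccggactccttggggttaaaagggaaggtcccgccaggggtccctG
KLK5: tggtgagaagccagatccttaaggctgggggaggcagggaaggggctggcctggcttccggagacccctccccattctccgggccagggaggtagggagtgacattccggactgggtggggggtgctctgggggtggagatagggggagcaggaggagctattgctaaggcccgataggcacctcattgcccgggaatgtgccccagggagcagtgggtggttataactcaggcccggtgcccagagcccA

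RefSeq promoter windows, from 250 bases before to 50 bases after a start, were found for 7 of the 10 genes, in 12 windows. PI3, SLPI and KLK8 had no window, so their promoters were not searched. The AP-1 motif TGANTCA, searched on both strands, was in 0 of the 12 windows, and 7.71% of 35116 promoters held it. The motif TATAAA was in 1 window, that of SPINK5, against 11.5% of promoters, and GGGCGG was in 7 windows, against 44.95% of promoters. Those 7 belong to KLK6, KLK7, KLK11 and KLK13. The windows of KLK7 overlap one another, as do those of KLK10 and those of KLK13, so the windows do not count separate stretches. The windows of KLK5 and KLK10 held none of the 3 motifs. A match, or its absence, describes these letters only.

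Across the arrays, 52.1% to 57.3% of probes stood above background, and no probe of the 10 genes had saturated pixels. The files name no slide, and 2 slides were inferred from the mean position of the spots. By that inference Go 1 shared a slide with the 3 controls (10930.1 to 10951 µm across), and Go 2 shared one with the 3 enzastaurin arrays (10897.1 to 10904.5 µm). Enzastaurin and control arrays shared no slide, so slide and treatment cannot be told apart in that comparison except through the 2 Go arrays, which differed from each other by a root mean square of 0.349 on the log2 scale, against 0.119 to 0.162 between enzastaurin arrays and 0.201 to 0.352 between controls. Of the keratinocyte markers, 8 of 8 on the array were above background on every array, and of 4 endothelial markers VWF was above it on every array, CDH5 on 1 Go and 1 enzastaurin array and PECAM1 and KDR on none. Of 6 fibroblast markers none was above it on every array, COL1A1 and LUM were above it on 2 Go, 3 enzastaurin and 2 control arrays, and PDGFRB on none. Of 6 leukocyte markers PTPRC was above it on no array and the other 5 on every array, and their summed signal was 1959 to 2423 with Go, 2384 to 2749.5 with enzastaurin and 1942 to 2383 in control. The summed signal of the fibroblast list was 510.1 to 513 with Go, 505 to 565 with enzastaurin and 476 to 483 in control. The part of these markers in the results was not tested.

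Elafin had the widest range of the 9 tested genes. The normalised log2 intensity of PI3 was 11.50 and 11.88 on the Go arrays, 9.55, 9.82 and 9.43 on the enzastaurin arrays and 11.81, 11.68 and 11.17 on the control arrays. All 3 enzastaurin arrays lay below every other array, and the Go and control arrays overlapped. PI3 averaged 11.69 ± 0.27 with Go (SD, n = 2), 9.60 ± 0.20 with enzastaurin (n = 3) and 11.56 ± 0.34 in control (n = 3). The difference of enzastaurin from control was -1.95 (SE 0.182, 95% interval -2.37 to -1.54, limma's moderated test with Benjamini-Hochberg adjustment, adjusted p = 0.000263), a signal ratio of 0.258. Go differed from control by 0.13 (SE 0.204, 95% interval -0.33 to 0.60), which did not pass the test (limma, adjusted p = 0.622). Both ends of that interval are smaller in size than the enzastaurin difference. In RNA from whole cultures, fewer cells that express a gene and less RNA per cell cannot be told apart. Go stood 2.09 above enzastaurin (SE 0.204), a ratio of 4.25, which placed PI3 at rank 4 from the top of the 12785 genes in the contrast that chose it.

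SLPI, a secreted inhibitor of neutrophil elastase and cathepsin G, was measured by 2 probes. The probe with the higher mean gave 15.26 and 15.36 with Go, 14.61, 14.40 and 14.66 with enzastaurin and 15.23, 15.26 and 15.17 in control. The other gave 12.79 and 12.90 with Go, 11.85, 11.74 and 11.83 with enzastaurin and 12.98, 12.94 and 12.56 in control. On both probes the enzastaurin arrays were the lowest 3 of the 8, and the Go arrays stood among or next to the controls. SLPI fell by 0.67 with enzastaurin relative to control on the first probe (SE 0.0864, limma adjusted p = 0.000622), a ratio of 0.631. Tested probe by probe over 24771 probes, an alternative added after the data were seen, the second probe gave -1.02 (SE 0.117, limma adjusted p = 0.000719). In that fit by probe, 52.6% of all probes were called between enzastaurin and control and 29.7% between Go and control. The Go difference from control was 0.09 (95% interval -0.13 to 0.31, limma adjusted p = 0.483) on the first probe and 0.02 on the second (limma adjusted p = 0.922). The contrast of Go with enzastaurin was 0.75, a ratio of 1.69, at rank 163 from the top.

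SPINK5 encodes LEKTI, whose fragments inhibit KLK5, KLK7 and related proteases. It read 8.32 and 8.45 with Go, 8.08, 8.14 and 8.05 with enzastaurin and 8.58, 8.37 and 8.26 in control. The enzastaurin arrays were again the lowest 3, by a margin smaller than the spread of the controls. SPINK5 fell by 0.31 with enzastaurin relative to control (SE 0.0938, limma adjusted p = 0.0202), and this call was lost with each array scaled to its median (-0.08, limma adjusted p = 0.509) and with slide as a block (-0.45, limma adjusted p = 0.161). It was also lost without control 1 (-0.23, limma adjusted p = 0.0535), without enzastaurin 1 (-0.31, limma adjusted p = 0.062) and without enzastaurin 3 (-0.29, limma adjusted p = 0.0678). With Go the difference from control was -0.02 (95% interval -0.25 to 0.22, limma adjusted p = 0.915).

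**Figure D1:**
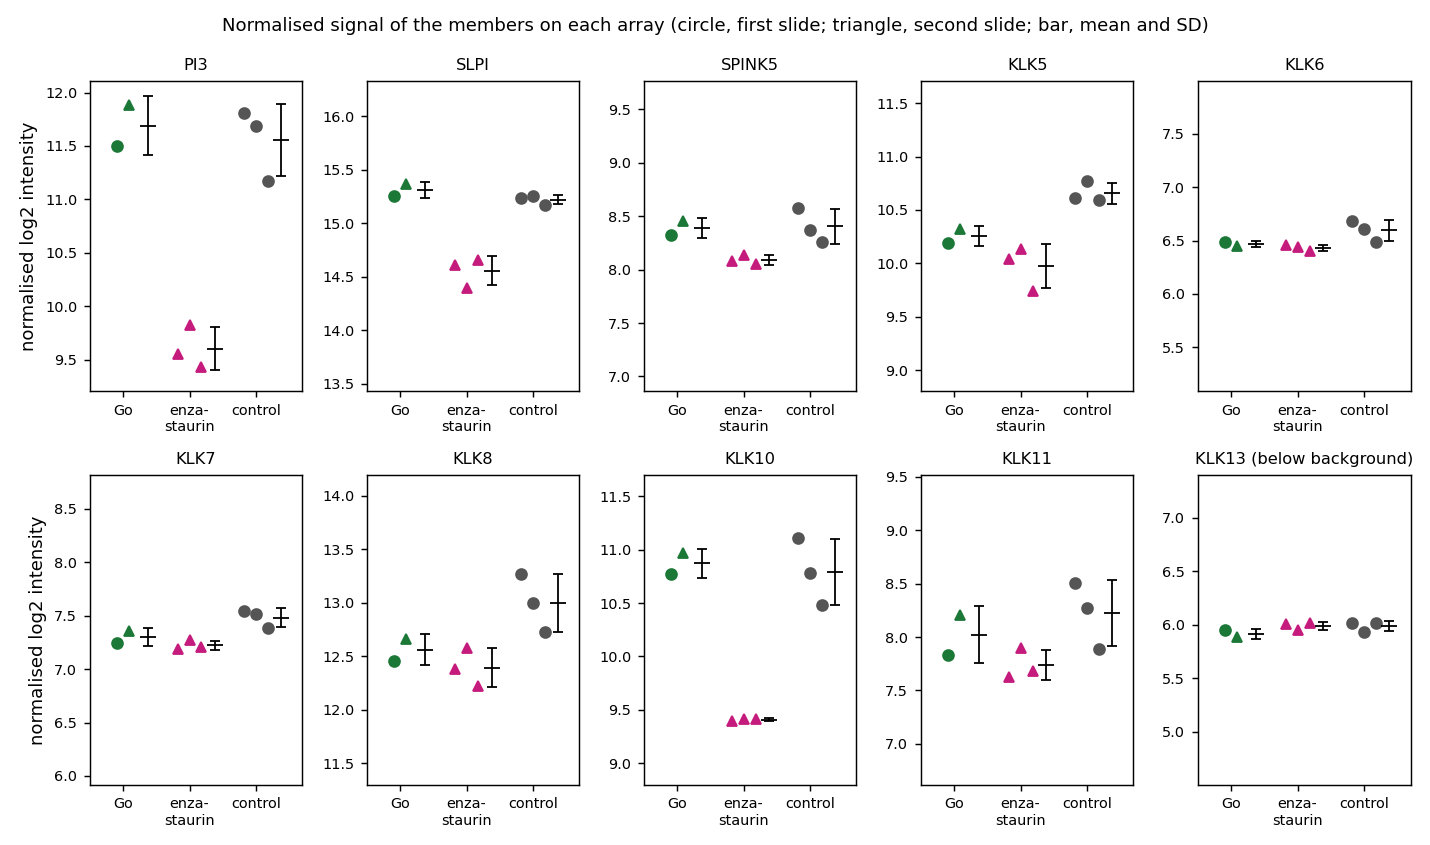
Normalised log2 intensity (vertical axis) of the 10 genes on the Go, enzastaurin and control arrays, 1 panel a gene, each panel spanning the same width of the log2 scale; circles are arrays of the first slide, triangles those of the second, and the bar gives the mean and SD. The enzastaurin arrays lie far below the others for PI3, from 9.43 to 9.82, and for KLK10, from 9.39 to 9.42, and KLK13 was below background on all 8 arrays.

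KLK10 was the kallikrein with the widest contrast. It was first described as a gene expressed in normal epithelial cells and lost in many breast cancer lines. Its brighter probe gave 10.77 and 10.97 with Go, 9.39, 9.41 and 9.42 with enzastaurin and 11.10, 10.78 and 10.48 in control. The enzastaurin arrays were nearly equal to one another and lay below all others, and the Go arrays lay inside the range of the controls. KLK10 averaged 10.87 ± 0.14 with Go (SD, n = 2), 9.41 ± 0.014 with enzastaurin (n = 3) and 10.79 ± 0.31 in control (n = 3). Enzastaurin differed from control by -1.38 (SE 0.142, 95% interval -1.70 to -1.06, limma adjusted p = 0.000331), a ratio of 0.384. Go differed from control by 0.08 (SE 0.159, 95% interval -0.28 to 0.44, limma adjusted p = 0.711). Go stood 1.46 above enzastaurin (SE 0.159), a ratio of 2.75, at rank 16 from the top of the contrast that chose it.

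The second probe of KLK10 was dimmer. It gave 8.40 and 8.21 with Go, 7.20, 6.99 and 7.12 with enzastaurin and 8.71, 8.45 and 8.17 in control, and it was above background on 1 of the 3 enzastaurin arrays. Its difference of enzastaurin from control was -1.35 (SE 0.138, limma by probe, adjusted p = 0.000562), with 2 of the 3 enzastaurin arrays not above background. With Go it was -0.14 (limma by probe, adjusted p = 0.487), the opposite sign to the brighter probe, and neither Go value passed the test.

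KLK5, a trypsin-like protease that starts the cascade in the outer epidermis, was lower with both inhibitors. It gave 10.19 and 10.32 with Go, 10.04, 10.14 and 9.74 with enzastaurin and 10.61, 10.77 and 10.59 in control. Every inhibitor array lay below every control array, and the Go arrays lay just above the enzastaurin arrays. With enzastaurin it differed from control by -0.68 (SE 0.111, limma adjusted p = 0.00148), a ratio of 0.623, and with Go by -0.40 (SE 0.125, 95% interval -0.69 to -0.12, limma adjusted p = 0.0391). The enzastaurin call was lost with slide as a block (-0.82, limma adjusted p = 0.0737). The Go call was lost in 12 of 20 alternatives, with adjusted p from 0.0135 to 0.327 over the 20, among them median scaling (-0.21), slide as a block (-0.47), and the fits without control 1 (-0.42), control 2 (-0.35), enzastaurin 1 (-0.40), Go 1 (-0.34) or Go 2 (-0.47).

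KLK8, the protease also called neuropsin, is found in skin and brain and fell with enzastaurin. It gave 12.46 and 12.67 with Go, 12.38, 12.58 and 12.22 with enzastaurin and 13.27, 12.99 and 12.72 in control. All inhibitor arrays lay below all controls, and the 2 inhibitors overlapped. The difference from control was -0.60 with enzastaurin (SE 0.148, limma adjusted p = 0.00872), lost under median scaling (-0.24, limma adjusted p = 0.225) and with slide as a block (-0.81, limma adjusted p = 0.130). With Go it was -0.43 (95% interval -0.81 to -0.06, limma adjusted p = 0.0703), which passed the test without control 3 (-0.57, limma adjusted p = 0.017).

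KLK7, a chymotrypsin-like protease that cuts corneodesmosin, and KLK11 gave smaller differences. KLK7 read 7.24 and 7.36 with Go, 7.19, 7.27 and 7.21 with enzastaurin and 7.55, 7.52 and 7.38 in control. KLK11 read 7.83 and 8.21 with Go, 7.63, 7.89 and 7.68 with enzastaurin and 8.51, 8.27 and 7.89 in control. All inhibitor arrays of KLK7 lay below its controls, whereas for KLK11 the enzastaurin and control arrays overlapped. KLK7 fell by 0.26 (limma adjusted p = 0.0185) and KLK11 by 0.49 (limma adjusted p = 0.0325) with enzastaurin relative to control. Neither passed the test with Go, at -0.18 for KLK7 (limma adjusted p = 0.126) and -0.20 for KLK11 (limma adjusted p = 0.400). Both enzastaurin calls were lost under median scaling (KLK7 -0.15, KLK11 -0.28), with slide as a block (KLK7 -0.38, KLK11 -0.87), and without control 1 (-0.23 and -0.35 in the same order), control 2 (-0.24 and -0.46), enzastaurin 1 (-0.24 and -0.44) or enzastaurin 3 (-0.25 and -0.46).

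KLK6, a trypsin-like kallikrein also known from the nervous system, was at the edge of detection. Its probe was above background on 1 of 2 Go arrays, 1 of 3 enzastaurin arrays and 3 of 3 control arrays, and its 8 values ran only from 6.40 to 6.69. Its difference from control was -0.16 with enzastaurin (95% interval -0.33 to 0.01, limma adjusted p = 0.0912) and -0.12 with Go (limma adjusted p = 0.263). The enzastaurin difference passed the test in 4 alternatives: background subtraction with a floor (-0.45, limma adjusted p = 0.0253), scaling to the 75th percentile (-0.49, limma adjusted p = 0.00574), no background correction (-0.23, limma adjusted p = 0.0483) and the fit without control 3 (-0.22, limma adjusted p = 0.0302). KLK13, another trypsin-like member, had 2 probes and was above background on no array with either, so it has no comparison.

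Of the 9 tested genes, 8 fell with enzastaurin relative to control, 0 rose and 1 did not pass the test. In that comparison 55% of all 12785 genes were called, and 36.9% were called lower. The median difference of the 9 was -0.60, against -0.14 over all genes. Below every control lay all enzastaurin arrays for 8 of the 9, where 46.1% of all genes showed that separation, the exception being KLK11. With Go, 1 of the 9 fell (KLK5) and 8 did not pass the test, where 31.8% of all genes were called and 20.2% were called lower. The Go median of the 9 was -0.12, against -0.10 over all genes, and for 3 of the 9 (KLK5, KLK7 and KLK8) both Go arrays lay below every control, where 38% of all genes did. The member counts with Go are thus near or below the level of all genes. The comparisons share the control arrays, and each also shares arrays with the contrast that chose the genes, so they are not independent of the choice.

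In the contrast of Go with enzastaurin, given without a test, the Go arrays lay above every enzastaurin array for 5 of the 9 genes (PI3, SLPI, SPINK5, KLK5 and KLK10), where 28.7% of all genes did. The differences were 2.09 for PI3, 1.46 for KLK10, 0.75 for SLPI, 0.30 for SPINK5, 0.29 for KLK11, 0.28 for KLK5, 0.17 for KLK8, 0.08 for KLK7 and 0.04 for KLK6. PI3, KLK10 and SLPI had the largest differences, and the other 6 genes lay within 0.30 of no difference. This contrast chose PI3 and KLK10, so their place in it, and in the count of 5, was fixed by the choice. The order of the means from high to low was Go, control and enzastaurin for PI3, KLK10 and SLPI, with Go and control not separated past the test. For the other 6 genes it was control, Go and enzastaurin, and the Go and enzastaurin arrays overlapped for KLK6, KLK7, KLK8 and KLK11.

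**Figure D2:**
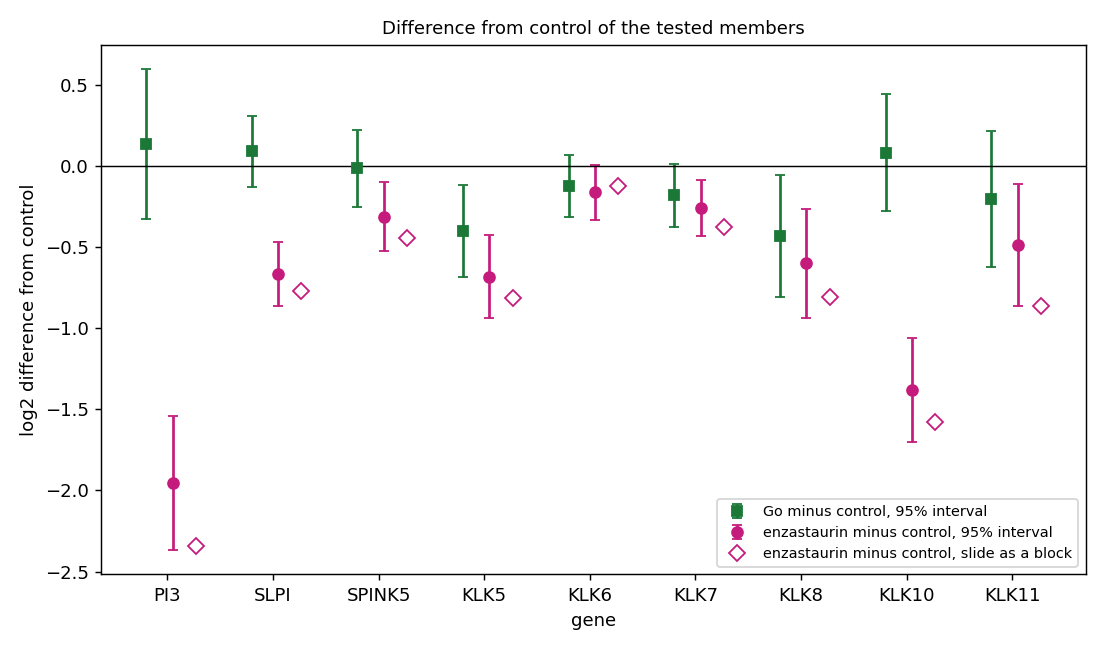
Log2 difference from control (vertical axis) of the 9 tested genes, with 95% intervals, for Go (squares) and enzastaurin (filled circles); open diamonds give the enzastaurin difference with slide as a block. The Go intervals of PI3, SLPI and KLK10 include 0, while their enzastaurin intervals end at -1.54, -0.47 and -1.06.

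Each Go array was also set against the other arrays of its own slide. Within the first slide, Go 1 differed from the mean of the 3 controls by -0.06 for PI3, 0.04 for SLPI and -0.02 for KLK10. Within the second slide, Go 2 differed from the mean of the 3 enzastaurin arrays by 2.28 for PI3, 0.81 for SLPI and 1.56 for KLK10. For these 3 genes Go 1 lay near the controls of its slide, and Go 2 lay far above the enzastaurin arrays of its own. The second difference is part of the contrast that chose PI3 and KLK10, so for them it is no independent check. For the other genes Go 1 lay below the controls of its slide (KLK8 -0.54, KLK5 -0.47, KLK11 -0.39, KLK7 -0.24, KLK6 -0.10 and SPINK5 -0.08). Go 2 lay above the enzastaurin mean of its own (KLK11 0.47, SPINK5 0.36, KLK5 0.35, KLK8 0.27, KLK7 0.14 and KLK6 0.02). These within-slide values rest on 1 Go array each.

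**Figure D3:**
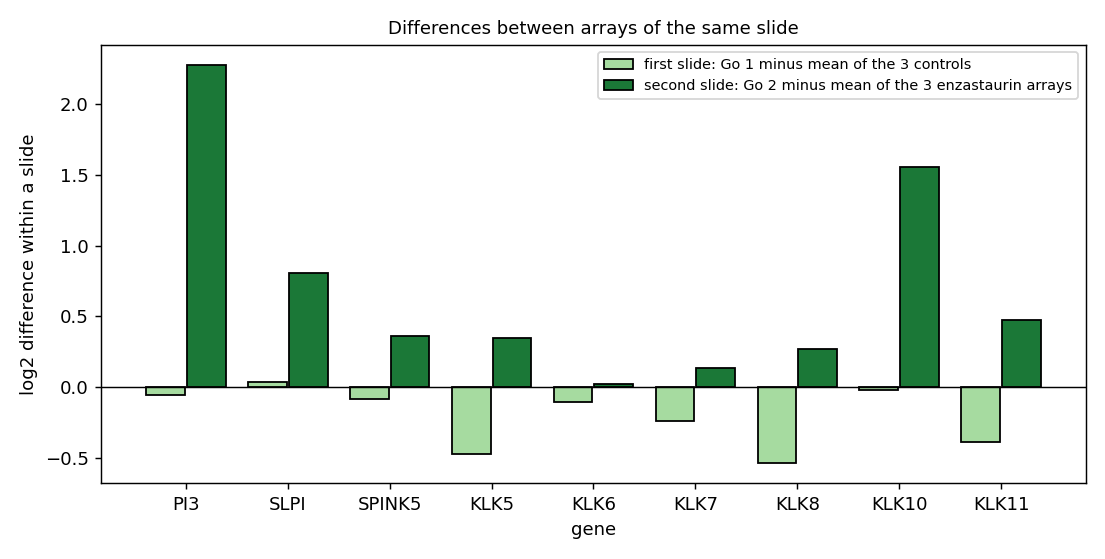
Log2 differences within a slide (vertical axis) for the 9 tested genes, for Go 1 minus the mean of the 3 controls on the first slide (light bars) and Go 2 minus the mean of the 3 enzastaurin arrays on the second (dark bars). For PI3 the light bar is -0.06 and the dark bar 2.28, and for KLK10 they are -0.02 and 1.56. The dark bars are part of the contrast that chose PI3 and KLK10.

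With slide as a block, 3 of the 9 genes kept a call between enzastaurin and control, PI3 at -2.34 (SE 0.345), SLPI at -0.77 (SE 0.167) and KLK10 at -1.58 (SE 0.282). That estimate is the sum of Go 1 minus the controls and of the enzastaurin arrays minus Go 2, so it holds the contrast that chose PI3 and KLK10, and these calls are no independent test. In the other 19 alternatives the same 3 genes passed the test, with adjusted p (limma) from 5.93e-05 to 0.00276 for PI3, from 0.000395 to 0.00494 for SLPI and from 6.11e-05 to 0.0031 for KLK10. Their differences over those 19 ran from -2.15 to -1.64 for PI3, from -0.84 to -0.47 for SLPI and from -1.54 to -1.07 for KLK10, and in each of them slide and treatment cannot be told apart. Of the rest, KLK5 passed in 19 of all 20 alternatives, KLK8 in 18, SPINK5 and KLK7 in 14, KLK11 in 13 and KLK6 in 4.

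**Figure D4:**
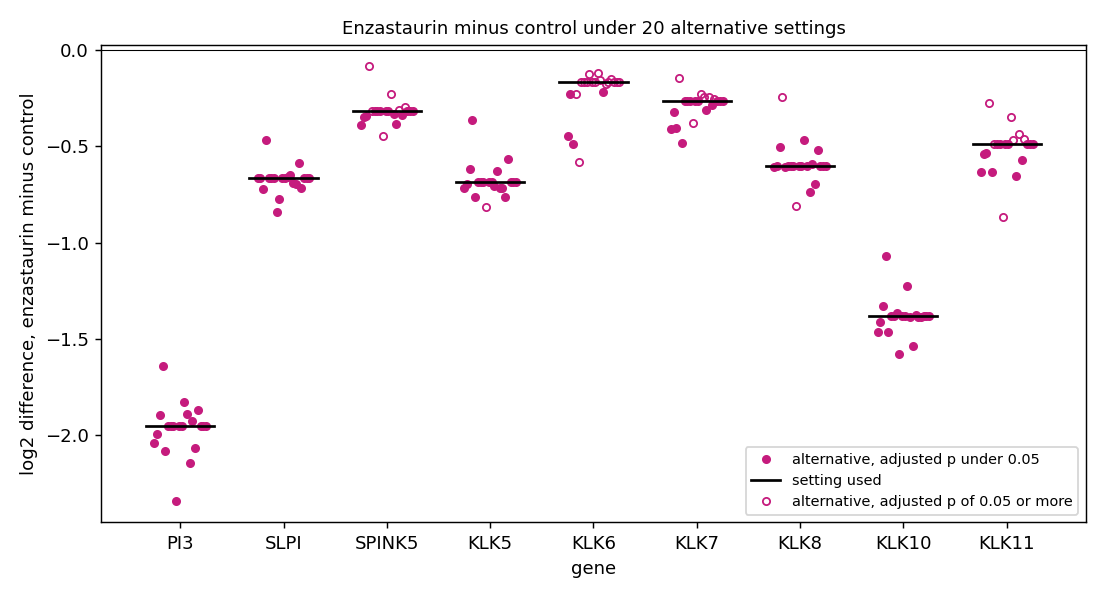
Log2 difference of enzastaurin from control (vertical axis) for the 9 tested genes under 20 alternative settings, as points, filled where the adjusted p was under 0.05, with the line at the value reported. All points of PI3, SLPI and KLK10 are filled, and the points of PI3 run from -2.34 to -1.64.

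The authors' deposited value table holds linear intensities with no scaling between arrays. Its median was 53 and 41 on the Go arrays, 48, 56 and 48 on the enzastaurin arrays and 41, 38 and 48 on the control arrays. Differences between groups in this table therefore also hold differences in the overall brightness of the arrays. In it PI3 had 3117 and 3695 with Go, 809, 1132 and 688 with enzastaurin and 2923, 2421 and 2245 in control. SLPI had 45109 and 48635 with Go, 29812, 30249 and 29508 with enzastaurin and 37362, 34996 and 36309 in control. The brighter KLK10 probe had 1950 and 1902 with Go, 739, 846 and 722 with enzastaurin and 1804, 1300 and 1343 in control. The 3 groups did not overlap on any of these probes, with Go highest and enzastaurin lowest. After normalisation, Go did not differ from control past the test on any of them. On the dimmer KLK10 probe, at 314 and 225 with Go, 96, 82 and 68 with enzastaurin and 292, 214 and 222 in control, the Go and control arrays overlapped and the enzastaurin arrays were again lowest. The mean ratio of Go to enzastaurin was 3.89 for PI3, 2.50 for KLK10 and 1.57 for SLPI, and that of enzastaurin to control was 0.346, 0.519 and 0.824 in the same order.

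Without scaling, the enzastaurin arrays lay below every control for 4 of the 9 genes (PI3, SLPI, KLK6 and KLK10), where 12% of all genes did. Of these, KLK6 was above background on 1 of the 3 enzastaurin arrays. The enzastaurin arrays are shared with the contrast that chose PI3 and KLK10, so this count is not independent of the choice. The Go arrays lay above every enzastaurin array for 3 of the 9 (PI3, SLPI and KLK10), against 6.97% of all genes. That contrast chose PI3 and KLK10, so this count was partly fixed by the choice and cannot be read as an excess. Above every control lay both Go arrays for 4 of the 9 (PI3, SLPI, SPINK5 and KLK10), against 28.1% of all genes. This count shares its Go arrays with the contrast that chose PI3 and KLK10, so it is not independent of the choice either. SPINK5 had 287 and 267 with Go, 254, 301 and 230 with enzastaurin and 241, 211 and 234 in control in this table. Its enzastaurin mean was 1.14 times the control mean there, a direction opposite to the normalised values. The overall brightness of the arrays is not removed from that ratio, and its part was not tested. KLK5, KLK7, KLK8 and KLK11 overlapped between all groups in the unscaled values.

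The neighbours of these genes were examined in turn. Of the 15 genes of the kallikrein cluster, 11 were tested, and 8 of them fell with enzastaurin relative to control, 1 rose and 2 did not pass the test. With Go, 3 of the 11 fell, 0 rose and 8 did not pass. Of all genes 36.9% were called lower with enzastaurin and 20.2% with Go. The enzastaurin count was 10 lower and 0 higher with scaling to the 75th percentile, 4 lower and 0 higher under median scaling and 1 lower with slide as a block. The 36.9% belongs to the setting reported, and the shares of all genes called lower in these other settings are not given here. The 11 include KLK5, KLK6, KLK7, KLK8, KLK10 and KLK11, which were counted above, and KLK10 was chosen by its signal. The cluster count is therefore no separate support for a fall. Of the kallikreins outside the 10 genes, 5 were tested and 3 fell with enzastaurin. The count of 8 includes KLK3, whose probe is doubtful. KLK9, which lies between KLK8 and KLK10, gave 8.54 and 8.12 with Go, 7.72, 7.68 and 7.75 with enzastaurin and 9.46, 9.39 and 8.83 in control. The 3 groups did not overlap, with Go between the others. KLK9 fell by 1.51 with enzastaurin (SE 0.170, limma adjusted p = 0.000412) and by 0.90 with Go (SE 0.191, limma adjusted p = 0.0142) relative to control. Its neighbour KLK10 differed by -1.38 with enzastaurin and by 0.08 with Go, and the difference between the 2 genes was not tested.

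The other kallikreins outside the 10 numbered 8, of which 5 were tested, with 3 lower and 1 higher with enzastaurin and 2 lower with Go. KLK4 rose by 0.22 with enzastaurin (limma adjusted p = 0.0347) from a level at the edge of detection, and its sign turned with scaling to the 75th percentile (-0.11). KLK14 fell by 0.89 with enzastaurin (limma adjusted p = 0.0345), and its 2 Go arrays were far apart at 8.61 and 7.11. The probe that stood for KLK3 fell by 1.05 with both inhibitors, but the other probes of that gene lay at or near background, so its name is doubtful here. With slide as a block none of these 5 passed the test, and KLK14 changed sign (0.61).

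**Figure D5:**
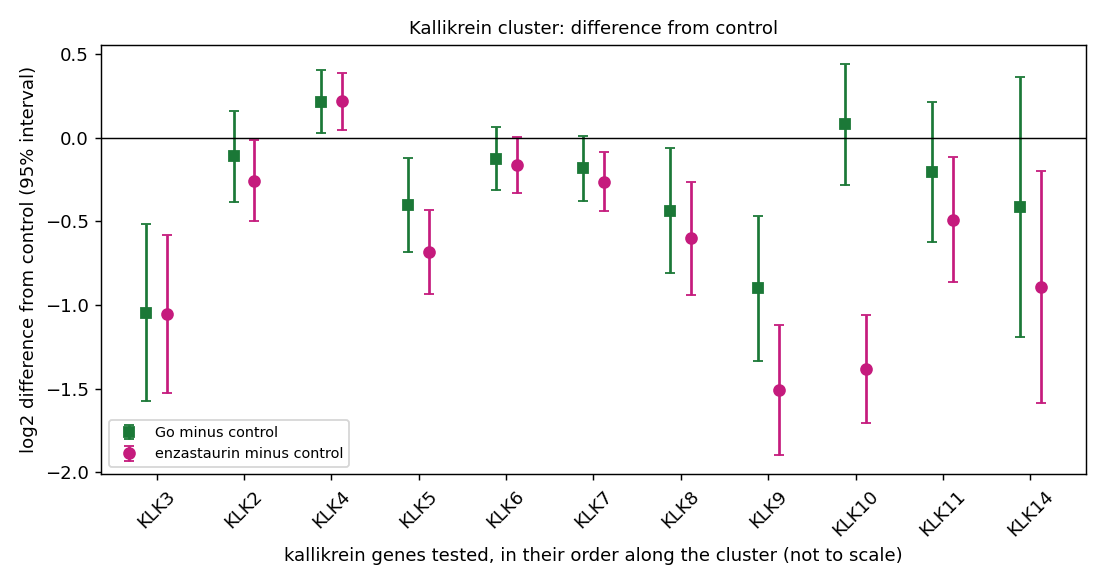
Log2 difference from control with 95% intervals (vertical axis) for the 11 tested kallikreins in their order along the cluster, not to scale, for Go (squares) and enzastaurin (circles). With enzastaurin KLK9 at -1.51 and KLK10 at -1.38 are the lowest, while Go lies at -0.90 for KLK9 and 0.08 for KLK10.

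In the other cluster, the order of genes in RefSeq is WFDC5, WFDC12, PI3, SEMG1, SEMG2 and SLPI. WFDC5, a further whey acidic protein gene, gave 7.31 and 7.43 with Go, 6.69, 6.58 and 6.65 with enzastaurin and 8.09, 7.74 and 7.39 in control. The enzastaurin arrays were the lowest, and the Go arrays met the lower controls. Its probe was above background on 1 of the 3 enzastaurin arrays, so the size of its fall is uncertain. It differed from control by -1.10 with enzastaurin (SE 0.154, limma adjusted p = 0.000821) and by -0.37 with Go (limma adjusted p = 0.125). The enzastaurin call was lost with slide as a block (-1.22, limma adjusted p = 0.0686). WFDC12 was above background on no array.

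Of 11 other whey acidic protein and SPINK genes, 4 were tested, with 2 lower and 1 higher with enzastaurin and 1 lower and 1 higher with Go. WFDC2 fell by 0.89 with enzastaurin (limma adjusted p = 0.00129) and by 0.66 with Go (limma adjusted p = 0.0191), neither of which passed with slide as a block. SPINK7 was the gene higher with both, at 6.97 and 8.27 with Go and 8.12, 7.96 and 8.04 with enzastaurin. It was above background on none of the 3 controls, so no fold is given. With slide as a block its enzastaurin call was lost (limma adjusted p = 0.0947) and its Go call was kept (limma adjusted p = 0.00963).

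Of 10 other epithelial protease inhibitors, all tested, 7 fell with enzastaurin and 4 with Go, and 0 rose. In that setting 36.9% and 20.2% of all genes were called lower. The matching shares under the other settings named next are not given here. Under median scaling 3 fell and 1 rose with enzastaurin, SERPINB5 being the one that rose (0.38, limma adjusted p = 0.0311), and 3 fell with Go. SERPINB3 and SERPINB4, near-identical squamous cell carcinoma antigens whose signals the probes may not separate, fell by 1.08 and 0.81 with enzastaurin and by 0.95 and 1.04 with Go. A2ML1 fell by 0.91, SERPINB1 by 0.47, CSTA by 0.47 and SPINT2 by 0.32 with enzastaurin, of which SERPINB1, CSTA and SPINT2 did not pass under median scaling. With slide as a block 0 of the 10 passed with enzastaurin and 1 with Go (SERPINB3, -0.79). PI3 and SLPI differed from control by 0.13 and 0.09 with Go, and whether this differs from the SERPINB genes was not tested.

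Among the substrates and receptors of kallikreins, 4 of 8 were tested. CDSN, which encodes corneodesmosin, fell by 0.68 with enzastaurin (limma adjusted p = 0.000589) and by 0.57 with Go (limma adjusted p = 0.00852). With Go, DSG3 fell by 0.42 (limma adjusted p = 0.0119) and F2RL1, which encodes protease-activated receptor 2, by 0.48 (limma adjusted p = 0.0499), and neither passed with enzastaurin. With slide as a block CDSN with Go alone passed (-0.55, limma adjusted p = 0.0415). Of 8 membrane serine proteases 6 were tested, with 1 higher (TMPRSS11E, 0.21) and 1 lower (TMPRSS2) with enzastaurin and 1 higher (PRSS8, 0.33) and 1 lower (TMPRSS2, -0.58) with Go. None of these passed with slide as a block, and TMPRSS2 was above background on none of the enzastaurin arrays.

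Of 4 proteases that elafin or SLPI inhibit, 0 passed the filter on dim probes. ELANE, PRTN3 and CELA1 were above background on no array and CTSG on 1, and of 6 neutrophil markers 4 were above background on none and 2 on 1.

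The genes whose profile was most like that of PI3, by the root mean square difference over the 8 arrays after each gene was centred on its mean, were SCEL (0.306), KLK10 (0.314), FRAT2 (0.338), UBALD2 (0.348) and KRT23 (0.371). Those most like KLK10 were SPSB3 (0.134), SLC6A14 (0.135), RGCC (0.149), UBALD2 (0.161) and FRAT2 (0.170). KLK10 was thus the second gene on the list of PI3, and Go minus enzastaurin, the contrast that chose both, is part of that likeness. Among the 9 genes, KLK6 and KLK7 were the closest pair (0.0647) and PI3 and KLK6 the most distant (0.941).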

How the data were processed

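Total RNA of 8 CAL-27 samples was labelled with Cy3 and hybridised to single-colour arrays of 41000 probes. The scanner tables, per the file headers GenePix results, give foreground and background intensity as deposited, and for each spot a score of signal to noise and its saturated pixels in percent, none of it normalised. The authors' deposited value table holds linear background-subtracted intensity without scaling. The program that made the value table is not given in the sources used here.

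The annotation ran end for end against the spots and was turned: replicate spots then differed by an SD of 0.565 to 0.654 (log2), against 3.80 to 4.22 as deposited, and the rank correlation with the value table was 0.990 to 0.994 across probes. Intensities were corrected with normexp (offset 50), quantile normalised and averaged over spots (limma 3.58.1, R 4.3.3). Probes whose signal-to-noise score passed 3 on 2 or more arrays were tested. Among 153 negative control spots, no array had more than 0.654% past that score. Each gene was read from its probe of highest mean. Probes were named by RefSeq accession (23453), current symbol (2309), older symbol (1016) or the name in the file (374), and 13848 stayed unnamed. One limma fit held the 3 groups, with 5 residual and 3.71 prior degrees of freedom. P-values were adjusted by Benjamini-Hochberg over 12785 genes and read at 0.05, and differences are on the log2 scale.

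The members, the gene lists and the alternatives were chosen with earlier results of these data known. Named besides the members are list genes called against control, at most 6 a list, and the 5 genes most like PI3 and KLK10. The planned design foresaw scanner files of more than 1 kind, and the part for GenePix files was used. In simulated data 200 of 12785 genes were changed. The fit recovered 99.9%, 97.5% and 62.1% of log2 changes of 2, 1 and 0.5 between enzastaurin and control. Between Go and control it recovered 99.6%, 94.5% and 47.3%, and false calls were 5.08% and 4.99% in the same order. The simulation had independent noise, no slide effect and a far smaller share of changed genes than the 55% called here with enzastaurin. Its rates therefore cannot be taken as the error rates of these calls. Alternatives covered background correction, scaling, the value table, the filter, the choice of probe, slide or replicate number as a block, the groups fitted, and each array left out. Array number limits the precision.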

Additional observations from a re-analysis of the deposited data

How the results depend on the processing

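The falls of PI3, SLPI and KLK10 with enzastaurin passed the test in the 19 alternatives other than slide as a block. In those 19, slide and treatment cannot be told apart. The falls also passed with slide as a block, which holds the contrast that chose PI3 and KLK10 and is no independent test. The member counts that follow are not set against the share of all genes called lower in each setting. With enzastaurin against control, 8 of 9 members were called as reported, 4 under median scaling, 3 with slide as a block, and 5 to 9 with 1 array left out (5 without control 1, enzastaurin 1 or enzastaurin 3). With Go against control 1 member was called as reported, 0 after background subtraction with a floor, with scaling to the 75th percentile or the median, from the authors' value table, with no filter on dim probes, with slide as a block and with only the groups compared, 2 with replicate number as a block, and 0 to 2 with 1 array left out. Of all genes, 7030 were called with enzastaurin (546 with slide as a block), and 4060 with Go (2352 under median scaling, 842 with slide as a block, 375 with only the groups compared, and 842 to 5527 with 1 array left out: 842 without Go 2, 993 without control 2, 1990 without control 1). Between the inhibitors 1065 genes were called, 527 with replicate number as a block and 244 to 1698 with 1 array left out.

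The Go differences that changed sign were all near 0. SPINK5 was 0.10 under median scaling, and -0.088 to 0.072 with 1 array left out (0.072 without control 1, 0.049 without Go 1). KLK10 was -0.031 with the mean of its probes, -0.019 with slide as a block, and -0.074 to 0.24 with 1 array left out (-0.074 without control 3, -0.019 without Go 2). PI3 was -0.059 with slide as a block, -0.0039 with the replicate block, and -0.059 to 0.33 with 1 array left out (-0.059 without Go 2, -0.057 without control 3). Deviations from the group means correlated at -0.148 to 0.153 between same-numbered arrays, and at -0.175 to 0.198 between arrays of different number. With so few arrays in a group, these values cannot tell whether same-numbered arrays belong together. Median scaling moved the median of all genes to 0.06 with enzastaurin, against -0.14 as reported, and the share of higher calls was 62.2%, against 32.9% as reported. With Go that share was 36.5% as reported, 69.3% under median scaling, 53.1% with slide as a block and 72.5% with only the groups compared. Between the inhibitors it was 60.4% as reported and 31.8% under median scaling. The cause of these changes was not tested. Slide as a block, with slides inferred, leans on Go 1 against Go 2 alone and holds the contrast that chose PI3 and KLK10, and KLK6 and KLK13 lie at or below background.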
